A study of Mus musculus with 4 samples.

Results

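Ribosome biogenesis genes were followed in mouse fetal liver haematopoietic cells with and without Bclaf1. The 50 genes were chosen by symbol, out of 32285 genes in the count matrices. Of these, 42 have symbols of the Utp, Nop, Nol or Rrp series followed by a digit or of the form Polr1 plus a letter, and 8 were listed by name (Nolc1, Mybbp1a, Ddx21, Ncl, Fbl, Bop1, Npm1 and Dkc1). The rule itself uses symbols and no measured value.

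The cells were LSK cells (negative for lineage markers, positive for Sca1 and c-Kit), a gate that holds haematopoietic stem cells and early progenitors, from E17.5 fetal livers (embryonic day), enriched on c-Kit beads and then sorted. CITE-seq read messenger RNA and 6 antibody tags (CD150, CD48, CD34, CD201, CD117 and Sca1) from the same single cells. The control embryos (WT) carried floxed Bclaf1 alleles and no Cre, and the knockout embryos (KO) carried the same floxed alleles together with Vav-Cre, a recombinase driven in blood cells. Each genotype was 1 pool of 10 embryos captured as 1 library, so the effects of Cre itself, of the pool and of the capture cannot be told apart from loss of Bclaf1, whose product acts in the nucleus in transcription and RNA processing. There was no replicate of either genotype and therefore no test, and every interval given is a 95% interval that covers counting error only.

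Ribosome synthesis starts in the nucleolus, where RNA polymerase I transcribes the precursor of the ribosomal RNAs. Small nucleolar ribonucleoproteins (snoRNPs) modify that precursor, the box C/D class by methylation through fibrillarin (Fbl) and the box H/ACA class by pseudouridylation through dyskerin (Dkc1). A large assembly called the small subunit processome, to which most Utp proteins belong, builds the small ribosomal subunit, while other factors such as Bop1 and Nop2 build the large one. Demand for ribosomes is high in proliferating progenitors and in erythroid cells, and Myc is a known activator of many of these genes.

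The WT library held 5345 cells with a median of 22734 UMIs (unique molecular identifiers, 1 per captured transcript), and the KO library held 2676 cells with a median of 34187.5. They shared 5 cell barcodes. Levels are UMIs summed over cells and scaled to a common total of gene UMIs (CPM), and a difference is the log2 ratio of 2 such levels. Bclaf1 itself stood at 217.8 CPM in WT and 75.8 in KO, a log2 ratio of -1.52, and since the deleted exons are not named in the labels and the reads come from the 3' end of transcripts, the remaining signal does not measure how complete the deletion was. Of the 13 HSC markers, Mecom was at 223.1 CPM in CD150+CD48- WT cells against 30.3 in CD150-CD48+ WT cells, and Hlf at 374.3 against 157.1, so the surface gate named for stem cells held the higher levels of both. Hepatocyte, endothelial, stellate and macrophage marker lists summed to at most 41.7 CPM in either library.

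Of the 50 genes, 48 had at least 5 CPM on average over both libraries and are called measured. Nol3 stood at 0.66 CPM in WT and 0.87 in KO. Nol4 stood at 0.028 CPM (4 UMIs) and 0.029. Neither has a known part in ribosome synthesis, nor has Nol4l, which was measured. Levels of the measured genes ran from 9.32 to 3247 CPM in WT and from 10.8 to 3434 in KO. Npm1 and Ncl alone held 53.3% of their summed UMIs in WT and 53.9% in KO.

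Over all cells the measured genes were slightly higher in KO. Their median log2 ratio of KO over WT was 0.10, against 0.067 over all 9229 genes at that level. Of the 48, 39 lay above 0, beside 65.0% of all genes. Counting intervals lay wholly above 0 for 36, wholly below for 4 and across 0 for 8. Such intervals were not counted over all genes. At least 25% higher were 3 of 48 (Utp14b, Rrp12 and Nol10), beside 7.47% of all genes, and none was 20% lower. The count is thus near the background. In empty droplets, which hold free RNA, the median ratio was 0.13 and 32 of 48 lay above 0. With free RNA subtracted from the cells the median was 0.13 with 38 of 48 above 0. The share of all genes is not given for either count, so neither is read as a result about these genes.

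RNA polymerase I genes were split. Polr1a, the largest subunit, stood at 30.9 CPM in WT and 34.5 in KO (log2 0.16, interval 0.096 to 0.22). Polr1c and Polr1d, the pair of subunits shared with RNA polymerase III, were the other way: Polr1c at 53.4 and 49.5 CPM (-0.11, -0.16 to -0.058) and Polr1d at 295.7 and 287.3 (-0.042, -0.063 to -0.020). Polr1b and Polr1e, both under 20 CPM, had ratios of 0.098 and 0.15. Polr1c was the gene with the lowest ratio of all 48.

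Among snoRNP proteins all 5 lay above 0, beside 65.0% of all genes. Nop58, a core box C/D protein, stood at 356.1 CPM in WT and 402.2 in KO (0.18, 0.16 to 0.19), Nop56, its partner, at 240.0 and 257.4 (0.10), and Fbl, the methyltransferase, at 274.9 and 285.7 (0.055). In the H/ACA class Dkc1, the pseudouridine synthase, stood at 159.8 and 171.0 CPM (0.098) and Nop10 at 600.3 and 639.7 (0.092).

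The 20 small subunit genes had a median ratio of 0.17, and 17 were higher in KO, beside 65.0% of all genes. Utp18 stood at 54.8 CPM in WT and 66.7 in KO (0.28, 0.24 to 0.33), Utp4, also called cirhin, at 28.5 and 34.7 (0.29), and Utp20 at 26.7 and 32.1 (0.27). The 3 members past 25% all belong here: Rrp12 at 11.01 and 13.8 CPM (0.32, 0.22 to 0.43), Nol10 at 9.32 and 11.7 (0.32, 0.21 to 0.44) and Utp14b at 12.0 and 15.1 (0.34, 0.24 to 0.44). Rrp7a went the other way with 41.1 and 38.7 CPM (-0.087, -0.15 to -0.029). Its span shares 831 bases with that of Serhl (20.3 CPM in WT and 17.1 in KO, -0.24), and the part of Serhl in its UMIs was not tested. Utp14b is a retrogene copy of Utp14a, and its 9777 bases lie wholly within the span of Acsl3 on chromosome 1 (29.6 CPM in WT and 31.7 in KO), so its UMIs may in part belong to either gene.

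Large subunit genes sat lower, with a median of 0.070 and 8 of 11 above 0, beside 65.0% of all genes. Nop2, an rRNA methyltransferase, stood at 31.0 CPM in WT and 36.7 in KO (0.25, 0.18 to 0.31), Nol9, an RNA kinase, at 23.0 and 26.9 (0.23) and Nol8 at 41.0 and 47.3 (0.21). Bop1, which acts with Pes1 and Wdr12, was at 28.2 and 29.6 CPM (0.070, 0.0019 to 0.14). Nol12 was at 53.6 and 50.9 CPM (-0.075, -0.13 to -0.024).

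The 5 abundant nucleolar scaffold and rRNA transcription proteins had the highest role median, 0.25. Nolc1, a snoRNP chaperone (ENSMUSG00000015176, chromosome 19, 46075847 to 46085543 in GRCm38.p6), stood at 136.9 CPM in WT and 166.8 in KO (0.28, 0.25 to 0.31). Mybbp1a stood at 128.7 and 155.0 CPM (0.27), the helicase Ddx21 at 143.7 and 171.0 (0.25) and nucleolin (Ncl) at 1582 and 1852 (0.23). Nucleophosmin (Npm1), the most counted of the 48, was nearer to 0 with 3247 and 3434 CPM (0.081, 0.074 to 0.087). Outside the roles, Nol7 was at 240.1 and 237.2 CPM (-0.018, with an interval across 0) and Nol4l at 10.3 and 10.8 (0.071, with an interval across 0).

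**Figure D1:**
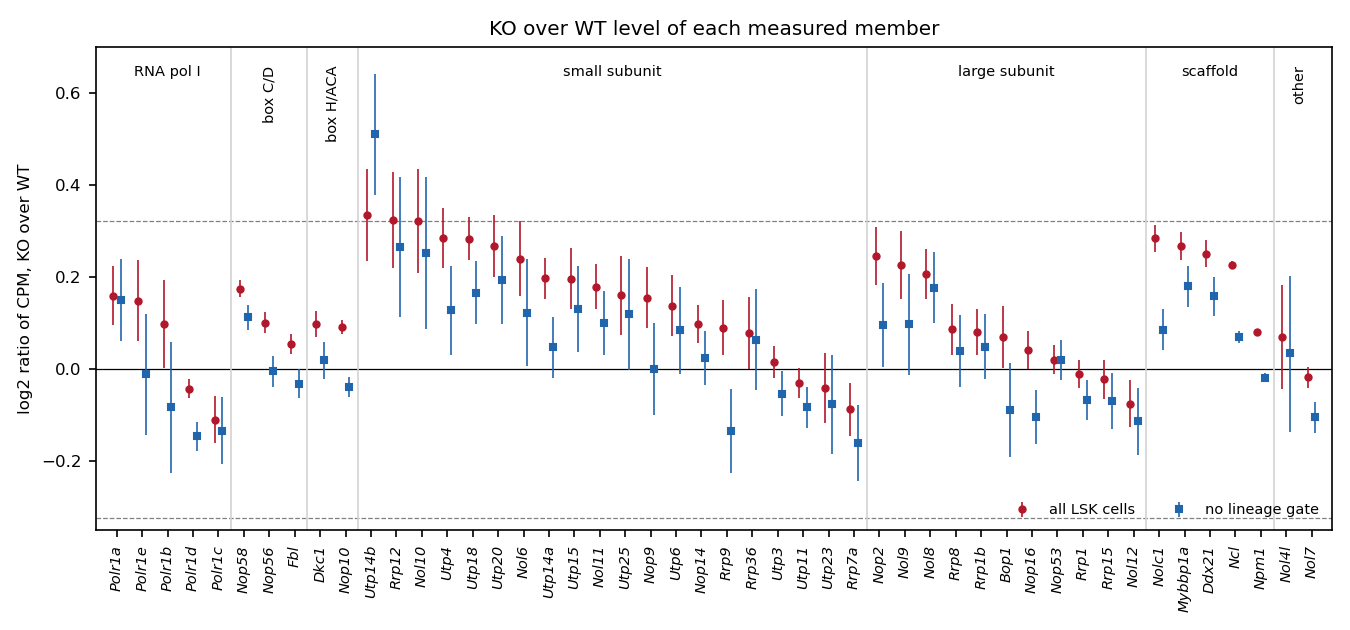
Log2 ratio of CPM, KO over WT, for each of the 48 measured genes, ordered by role, with 95% counting intervals. Red circles are all LSK cells and blue squares are cells of the no lineage gate, and dashed lines mark 25% higher and 20% lower. Most red points lie above 0 with a median of 0.10, and the blue points have a median of 0.037.

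The rest of the pathway behaved in much the same range. Of 133 further ribosome biogenesis genes, 132 were measured, with a median of 0.10. Above 0 were 103, beside 65.0% of all genes, and 2 were at least 25% higher, beside 7.47%. Those 2 were Rrn3, the initiation factor of RNA polymerase I, at 15.3 CPM in WT and 20.9 in KO (0.45), and Nat10, the rRNA acetyltransferase, at 21.0 and 28.3 (0.43). By group the medians were 0.13 for polymerase I factors (9 of 13 above 0), 0.16 for small subunit factors (35 of 40), 0.042 for snoRNP factors (10 of 15), 0.085 for large subunit factors (39 of 49) and 0.051 for the exosome, the nuclease complex that trims rRNA (10 of 15). The exosome list holds Mpp6, in mouse the symbol of a membrane protein outside the complex, and without it the median was 0.044 (9 of 14). Sbds, which releases the large subunit for translation, was the lowest at 60.9 and 49.5 CPM (-0.30). Myc stood at 87.7 CPM in WT and 105.7 in KO (0.27), and Mycn at 68.7 and 48.7 (-0.50).

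Because Myc family proteins bind the hexamer CACGTG (the E-box; a palindrome, so both strands are covered), it was searched in promoter sequences from RefSeq (GRCm38.p6), 250 bases before to 50 bases after each start. Of 39 genes with a promoter there, 9 held it (23.1%): Mybbp1a, Nol11, Nop2, Rrp7a, Utp14b, Utp18, Utp20, Utp25 and Utp4. The share was 12.4% (921 of 7412) among all measured genes with a promoter and 8.09% (2187 of 27025) among all genes. The 9 had a median KO over WT ratio of 0.27 and the other 30 a median of 0.098, while Rrp7a, with the hexamer, was at -0.087. For Erythroid over no lineage the order was the other way, with medians of 0.41 for the 9 and 0.53 for the 30. Windows are given for the 5 genes whose hexamer lies before the start site with its flanks inside the promoter, 5' to 3' on the gene's strand and with the hexamer in capitals, to show the sequence around it in genes with high ratios (Utp14b, Utp18 and Nop2) and in 1 with a low ratio (Rrp7a). For Utp14b the promoter used begins at base 78658190, past the first base of the gene's span (78657825). Its start site is thus not that of the span, and its hexamer lies inside the span and inside Acsl3. A match is a string in a window and says nothing of binding.
Utp18 (chr11:93885767-93885816, minus strand, 20 bases before the start): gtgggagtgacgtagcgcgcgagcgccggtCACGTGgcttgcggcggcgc
Nop2 (chr6:125131793-125131858, plus strand, 60 bases before): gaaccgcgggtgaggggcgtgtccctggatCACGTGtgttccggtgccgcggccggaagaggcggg
Utp14b (chr1:78658347-78658412, plus strand, 63 bases before): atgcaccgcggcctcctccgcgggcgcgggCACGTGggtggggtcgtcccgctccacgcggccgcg
Nol11 (chr11:107189389-107189454, minus strand, 43 bases before): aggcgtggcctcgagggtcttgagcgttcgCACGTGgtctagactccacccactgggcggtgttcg
Rrp7a (chr15:83122974-83123039, minus strand, 208 bases before): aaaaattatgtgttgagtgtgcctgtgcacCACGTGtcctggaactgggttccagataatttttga

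Of the larger lineage gates (Erythroid, Megakaryocyte, Granulocyte-monocyte and Lymphoid), Erythroid and Lymphoid stood farther from the no lineage gate than KO stood from WT over all cells. A cell was placed in a gate when its mean log2 level of that gate's marker genes passed a percentile set over both libraries (the 90th for Erythroid, Megakaryocyte, Granulocyte-monocyte and Lymphoid, the 98th for Mast, Basophil-eosinophil and Dendritic), and in the no lineage gate when it passed none. Cells that passed more than 1 threshold (211 WT, 148 KO) were left out of all these gates. No ribosome biogenesis gene is on those lists. These gates are ranges of a score and not cell types: 1.05% of WT and 1.61% of KO cells lay within 10% of the Erythroid threshold. More cells lay that near to the other thresholds: 6.06% and 5.19% for Megakaryocyte, 5.63% and 5.27% for Lymphoid, and 4.40% and 4.45% for Granulocyte-monocyte. Those 3 gates themselves held 7.07% to 9.60% of a library's cells. In Erythroid-gate cells the median score was 1.13 for the erythroid list in both libraries, and for the HSC list 0.054 in WT and 0.066 in KO.

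Erythroid-gate cells held the highest levels in both libraries. Their summed CPM of all 50 genes was 13064 in 278 WT cells and 13532 in 357 KO cells, against 8769 in 3545 WT cells and 8820 in 1434 KO cells of the no lineage gate. At least 25% higher in both libraries were 33 of 48, beside 19.6% of all genes, with a median log2 ratio of 0.52 where all genes had -0.15. Nolc1 was the most different: 124.6 CPM in the no lineage gate and 260.0 in the Erythroid gate of WT (log2 1.06), 132.3 and 282.2 in KO (1.09). Rrp9, which binds the U3 snoRNA, stood at 33.3 and 66.4 CPM in WT (0.99) and 30.4 and 65.6 in KO (1.11), and Nop9, Nol9 and Rrp12 had mean ratios of 0.84 to 0.86. Utp14b was the exception, lower in the Erythroid gate, with 12.2 and 9.38 CPM in WT (-0.38) and 17.4 and 10.1 in KO (-0.78). Utp23 and Utp25 barely differed, at 0.10 and 0.11.

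Within each cycle gate the Erythroid median over no lineage lay between 0.31 and 0.65, where all genes had medians between -0.31 and -0.074. The difference was thus present in each of the low cycle, S and G2M gates. In the low cycle gate this rests on few Erythroid-gate cells, 17 in WT and 11 in KO. There 38 of 48 were higher in WT, beside 3157 of 8875 among all genes, and 33 of 48 in KO, beside 3307 of 9149. Single KO ratios ran from -2.49 to 1.45. Erythroid-gate cells also had the highest UMI counts, with medians of 53717 in WT and 68732 in KO. With every cell thinned to 8000 UMIs, the median share of gene UMIs in the 50 genes was 1.28% per Erythroid-gate cell in WT and 1.30% in KO, against 0.81% and 0.80% in the no lineage gate.

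Lymphoid-gate cells held less. Their summed CPM was 7075 in WT and 7370 in KO, and 21 of 48 were at least 20% lower than in the no lineage gate in both libraries, beside 11.1% of all genes, with a median of -0.33 against -0.015 for all genes. Rrp12 went from 10.2 to 5.49 CPM in WT (-0.90) and from 12.3 to 6.75 in KO (-0.87). Nolc1 went from 124.6 to 74.6 CPM in WT and from 132.3 to 82.9 in KO, and Nop2, Rrp9 and Nol10 had mean ratios of -0.63, -0.58 and -0.56. Nop53, a 60S factor, was the reverse: 135.5 and 160.0 CPM in WT (0.24) and 137.4 and 167.7 in KO (0.29). Of the Lymphoid-gate cells, 55.0% in WT and 49.6% in KO were in the low cycle gate, and within that gate the medians were -0.36 and -0.24. Within the G2M gate (81 and 60 cells) they were -0.35 and -0.38, where all genes had 0.041 and -0.019. Within the S gate (33 and 15 cells) they were -0.091 and -0.015, so the lower level was not seen at that size there.

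Megakaryocyte-gate and Granulocyte-monocyte-gate cells stayed near the no lineage gate. For Megakaryocyte, 3 of 48 were at least 25% higher in both libraries (Nol4l, Rrp8 and Utp6), beside 6.23% of all genes. Nol4l went from 9.09 to 16.8 CPM in WT and from 9.31 to 15.1 in KO. Utp6, Rrp8 and Nol9 had mean ratios of 0.40, 0.38 and 0.35, and Rrp36, Polr1c and Rrp1b of -0.11, -0.07 and -0.07. For Granulocyte-monocyte, 2 were higher (Bop1, from 26.3 to 33.1 CPM in WT and from 24.8 to 33.3 in KO, and Nop9), beside 6.33% of all genes, and Nol4l was lowest with a mean of -0.40. Fbl and Nolc1 had means of 0.25 and 0.24 there, Nop53 of -0.25 and Nol8 of -0.15. The small gates were all low: 16 of 48 were at least 20% lower in both libraries in Mast-gate cells (19 WT and 9 KO), beside 20% of all genes, 18 of 46 in Basophil-eosinophil-gate cells (5 and 5), beside 15.8%, and 35 of 48 in Dendritic-gate cells (51 and 25), beside 31.5%. All 3 shares stood above their backgrounds, over few cells. The median log2 ratios over the no lineage gate were -0.47 for Mast (all genes -0.16), -0.61 for Basophil-eosinophil (all genes 0.027) and -0.78 for Dendritic (all genes -0.24).

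**Figure D2:**
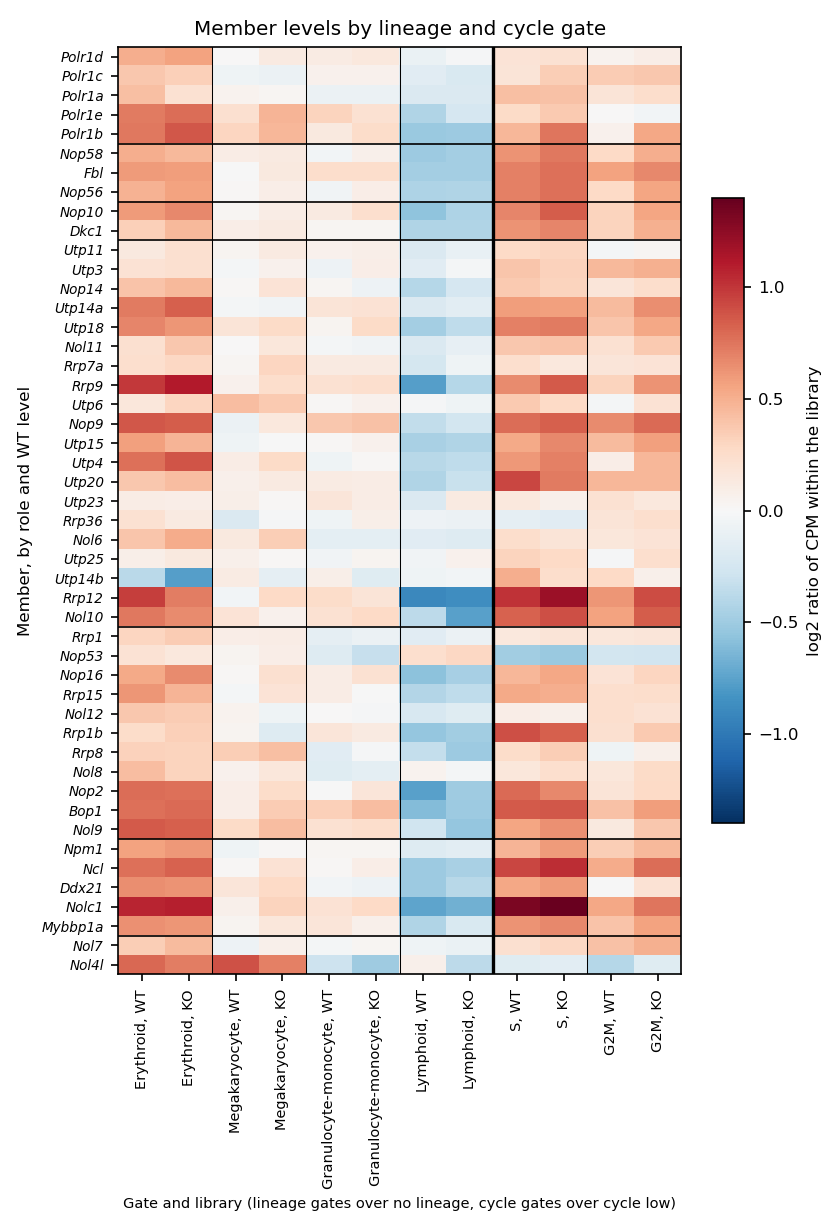
Log2 ratio of CPM within each library for the 48 measured genes (rows, by role and WT level) in 4 lineage gates over the no lineage gate and in S and G2M gates over the low cycle gate (columns, WT and KO side by side). Red is higher and blue lower. The Erythroid and S columns are red with medians near 0.52 and 0.53, the Lymphoid columns blue with a median of -0.33, and each WT column resembles its KO neighbour.

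The cell cycle was the other large axis. Cells in the top 25% by share of G2 and M phase transcripts form the G2M gate, other cells in the top 25% by S phase transcripts the S gate (19.9% of WT and 20.7% of KO cells, since those also high for G2M are left in the G2M gate), and cells under both medians the low cycle gate. In S over low cycle cells 28 of 48 were at least 25% higher in both libraries, beside 19.6% of all genes, with a median of 0.53 against -0.11. Nolc1 stood at 78.8 CPM in low cycle and 196.2 in S cells of WT, and at 88.6 and 231.9 in KO. Ncl stood at 1057 and 2028 CPM in WT, 1095 and 2244 in KO. Nop53 was again the reverse, with 162.3 and 115.5 CPM in WT and 168.2 and 117.7 in KO. In G2M over low cycle cells 16 of 48 were at least 25% higher, beside 16.1% of all genes, with a median of 0.28.

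Between surface gates the result differed by library. Surface gates split CD150 and CD48 tag levels at the crossing of 2 fitted Gaussian components in each library, and 6.72% to 10.9% of cells lay within 0.25 of a threshold on the log ratio scale. CD150+CD48- is the gate in which most stem cells lie, and CD150-CD48+ holds multipotent and lineage-primed progenitors. In CD150-CD48+ over CD150+CD48- cells the WT median was 0.064 (all genes -0.14), with 31 of 48 higher, beside 32.0% of all genes. The KO median was -0.15 (all genes -0.075), with 7 of 48 higher, beside 38.4% of all genes. Nolc1 stood at 117.8 CPM in CD150+CD48- and 132.7 in CD150-CD48+ cells of WT, and at 187.1 and 146.4 in KO. Bop1 stood at 19.5 and 28.5 CPM in WT and 31.7 and 27.3 in KO. By the mean of both libraries Utp14b (0.32), Utp23 (0.18), Bop1 (0.17), Rrp1b (0.12) and Fbl (0.09) were highest and Nol4l (-0.50), Nol10 (-0.31), Rrp1 (-0.24), Utp4 (-0.21) and Nop53 (-0.21) lowest. CD150-CD48- over CD150+CD48- cells had a median of 0.034 (all genes -0.044). With tags split at their medians it was -0.38. CD150+CD48+ cells held more than CD150+CD48- cells, with a median of 0.18 (all genes -0.085). At least 25% higher in both libraries were 3 of 48 (Polr1e, Rrp12 and Rrp9), beside 3.29% of all genes. However, with tags split at their medians the median of the 48 was -0.098.

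The difference between libraries in the surface gates lay in the CD48- gates. In CD150+CD48- cells (622 WT, 284 KO) the median KO over WT ratio was 0.30, where all genes had -0.0093, and 21 of 48 were at least 25% higher, beside 14.9% of all genes. In CD150-CD48- cells (635 and 322) the median was 0.29 and again 21 of 48 were higher by that much, beside 11.7%, but with tags split at their medians the median was -0.0044. In CD150+CD48+ cells (637 and 396) it was 0.081 with 2 of 48, beside 10.1%, and in CD150-CD48+ cells (3451 and 1674) 0.070 with 1 of 48, beside 8.01%, and -0.014 under median of ratios scaling. The largest ratios in CD150+CD48- cells were those of Bop1 (0.70, interval 0.46 to 0.95), Nolc1 (0.67, 0.57 to 0.77), Utp4 (0.65, 0.44 to 0.86) and Nol10 (0.64). Ncl stood at 1389 CPM in WT and 1987 in KO there (0.52). In the CD201 high part of CD150+CD48- cells (311 and 142) the median was 0.48 and 33 of 48 were at least 25% higher, beside 22.5%. However, the CD201 tag had a median of 10 UMIs in WT and 37 in KO over all cells, and of 42 and 91 in CD150+CD48- cells. A split at each library's own median thus does not select the same tag level. The CD48 tag also differed in CD150+CD48- cells, with a median of 305 UMIs in WT and 714.5 in KO, and thresholds were set in each library.

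Erythroid-gate cells made up a larger share of KO cells in these gates. They made up 5.20% of WT and 13.3% of KO cells in all, 4.82% and 25% of CD150+CD48- cells, 11.2% and 29.5% of CD150-CD48- cells, 17.7% and 32.6% of CD150+CD48+ cells, 1.85% and 3.70% of CD150-CD48+ cells, and 0.965% and 25.4% of CD201 high cells. The 12 erythroid markers summed to 862.4 CPM in WT and 1662 in KO in CD150+CD48- cells, with none at 0, and Klf1, the erythroid transcription factor, stood at 26.0 and 78.4. The 13 HSC markers summed to 1389 and 938.4 CPM there.

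Within the no lineage cells of CD150+CD48- (477 WT, 162 KO) the excess was not seen. The summed CPM of the 50 genes was 7163 in WT and 7112 in KO, and the median ratio was 0.026 against 0.088 for all genes. Of 48, 26 lay above 0, where 6205 of 9814 genes did, and 3 were at least 25% higher, beside 19.8% of all genes. Nolc1 stood at 87.8 CPM in WT and 94.9 in KO (0.11, interval -0.074 to 0.30). Within the Erythroid-gate cells of the same surface gate the summed CPM was 13505 in 30 WT cells and 13292 in 71 KO cells. For CD150-CD48- no lineage cells the median was 0.0014, for CD150+CD48+ -0.047 and for CD150-CD48+ 0.034. In CD201 high no lineage cells it was 0.12, where all genes had 0.090.

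**Figure D3:**
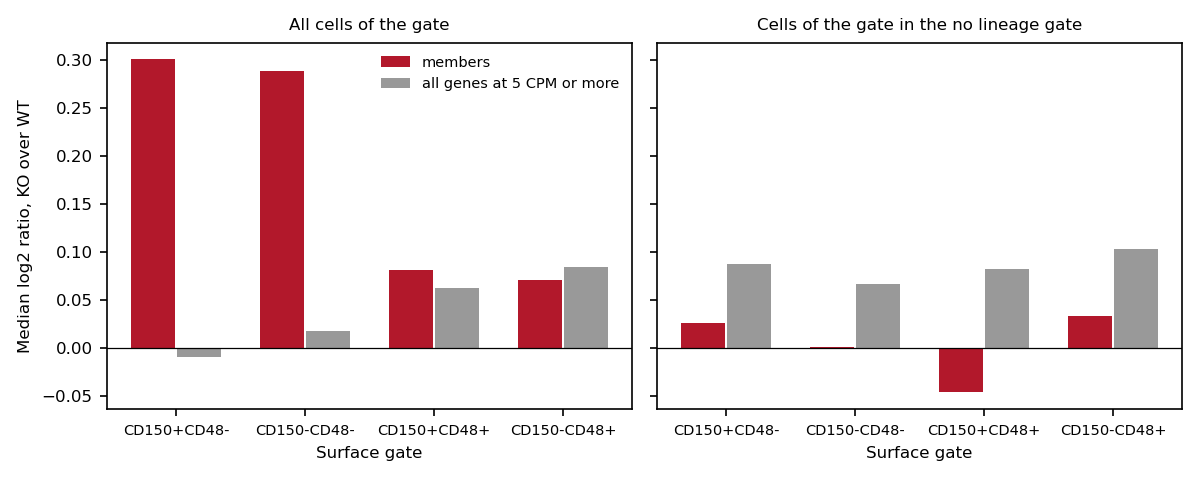
Median log2 ratio of KO over WT in each surface gate for the 48 measured genes (red) and for all genes with at least 5 CPM (grey), over all cells of the gate (left) and over those of its cells in the no lineage gate (right). The red bars of 0.30 and 0.29 in the CD48- gates on the left stand at 0.026 and 0.0014 on the right.

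In no lineage cells alone, CD150-CD48+ and CD150+CD48+ cells held more than CD150+CD48- cells in both libraries. CD150-CD48+ over CD150+CD48- had a median of 0.26 in WT and 0.27 in KO, where all genes had -0.18 in each. At least 25% higher in both were 14 of 48, beside 8.41% of all genes. CD150+CD48+ over CD150+CD48- had 12 of 48, beside 8.35%. Nolc1 stood 0.61 higher in WT and 0.59 in KO on the log2 scale in CD150-CD48+ cells, and Rrp9 0.73 and 0.68. In no lineage cells of the low cycle gate the CD150-CD48+ medians were 0.11 and 0.073, where all genes had -0.20 and -0.19. At least 25% higher in both libraries were 2 of 48 (Rrp9 and Utp14b), beside 4.73% of all genes. That count was near the background, while the medians lay above those of all genes.

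Within the larger lineage gates and the low cycle and S gates, KO over WT medians lay between 0.037 and 0.11. In the Erythroid gate the median was 0.041 and none of 48 was at least 25% higher, beside 10.1% of all genes. In the no lineage gate it was 0.037 against 0.096 for all genes, with 1 of 48 (Utp14b) at least 25% higher, beside 8.83%. Utp14b there stood at 12.2 CPM in WT and 17.4 in KO (0.51, 0.38 to 0.64). The low cycle gate had a median of 0.050 with 2 of 48 (Utp14b and Utp20), beside 11.9%, and the S gate 0.075 with 1 of 48 (Rrp12), beside 8.39%. In the gates of few cells the medians were -0.24 for Mast (all genes -0.035), -0.38 for Basophil-eosinophil (all genes -0.060) and 0.0023 for Dendritic.

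The G2M gate differed more, with a median of 0.21 and 11 of 48 at least 25% higher, beside 8.72% of all genes. Utp4 (0.49), Nol10 (0.44) and Rrp12 (0.44) were the highest. Erythroid-gate cells were 5.30% of G2M cells in WT and 15.6% in KO. In G2M cells of the no lineage gate the median was 0.053 with 1 of 48, beside 9.19%, and in those of the Erythroid gate (60 WT, 120 KO) it was 0.031 with 5 of 48, beside 21%.

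Over single cells the summed share was nearly the same in both libraries. Thinned to 8000 UMIs, the median share of gene UMIs in the 50 genes was 0.80% per WT cell and 0.84% per KO cell. Low cycle cells had 0.66% in both, S cells 1.00% in WT and 1.04% in KO, and Lymphoid-gate cells 0.65% and 0.67%. The middle 50% of CD150+CD48- cells ran from 0.58% to 0.84% in WT and from 0.61% to 1.04% in KO, so the upper end differed more than the lower.

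**Figure D4:**
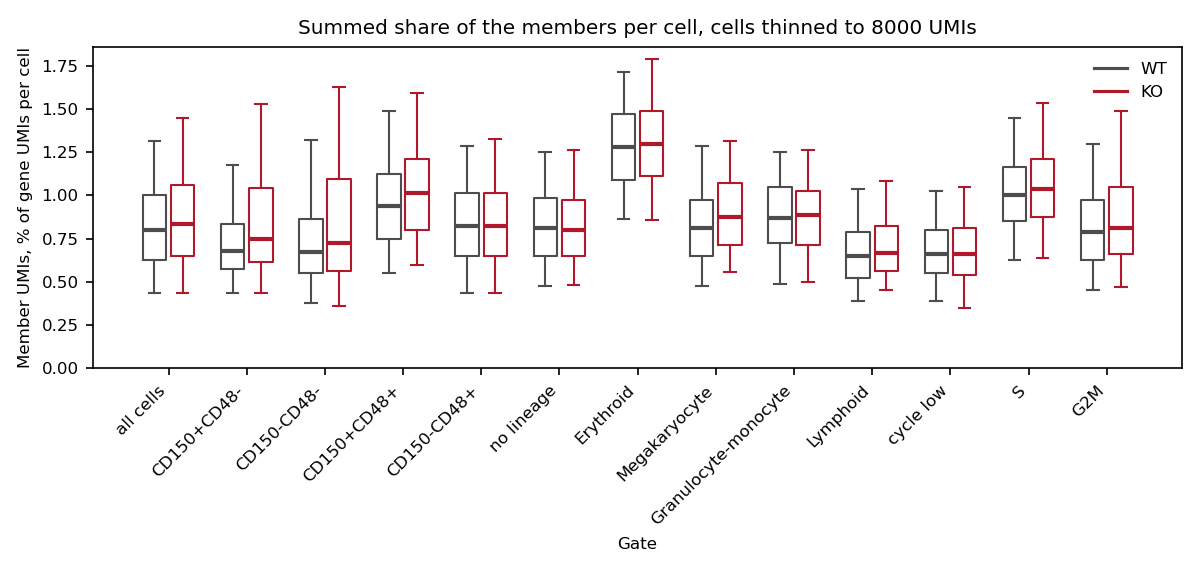
Share of a cell's gene UMIs in the 50 genes, in percent, with each cell thinned to 8000 UMIs, by gate, for WT (grey) and KO (red). Boxes are quartiles with the median, whiskers the 5th and 95th percentiles of cells, which are not replicates. Erythroid-gate boxes are the highest (medians 1.28 and 1.30) and Lymphoid and low cycle boxes the lowest of those drawn (0.65 to 0.67).

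Over all cells and in the no lineage gate longer genes had higher ratios, among these genes as among all. Over the 48 genes, Spearman's rho between KO over WT and gene span (start to end in GRCm38.p6) was 0.41 over all cells, and over 9025 genes it was 0.28. In the no lineage gate it was 0.48 and 0.44 (9069 genes). With spans cut into 3 equal groups over all genes, in that gate the 22 genes of the shortest group had a median of -0.024 (all genes -0.016), the 22 of the middle group 0.078 (all genes 0.096) and the 4 of the longest group 0.17 (all genes 0.17). Those 4 were Polr1a, Utp20, Nol10 and Nol4l. In the Erythroid gate rho was 0.31 over the 48 and 0.36 over all genes, and the median of the longest group (0.061) lay below that of the middle group (0.078). The genes share 2 libraries and their depths, and the part of span in the ratios was not tested.

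**Figure D5:**
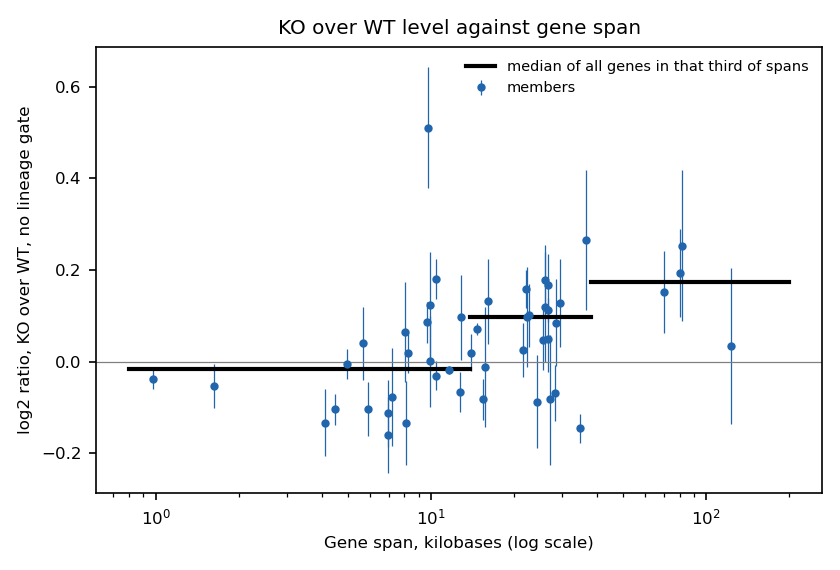
Log2 ratio of KO over WT in the no lineage gate against gene span in kilobases (log scale) for the 48 measured genes, with 95% counting intervals. Black lines are the medians of all genes in each of 3 equal groups of spans (-0.016, 0.096 and 0.17). The point at 0.51 is Utp14b.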

How the data were processed

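The UMI counts deposited by the authors, unnormalised, cover genes and antibody tags for every barcode and were made with Cell Ranger (4.0.6) on mm10 per the submitters' processing notes, which also name Seurat and DESeq. A barcode counted as a cell with 500 or more genes, up to 10% mitochondrial UMIs and enough gene UMIs: at minimum 1000, or 10% of the depth at percentile 99 among the 6000 deepest barcodes where that is more (8178 in WT, 9992 in KO). No doublet caller was run.

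Counts were summed over cells, with exact Poisson and conditional binomial 95% intervals (Python 3.11.15, SciPy 1.17.1). The ratio step was tested on simulated counts. Depth was 141419013 UMIs in WT and 104358292 in KO. The 4 samples in 4 groups are the RNA and tag parts of 1 library per genotype. Named genes were the 8 listed by symbol, up to 3 higher and 3 lower per role by the interval bound nearest to 0 with at least 20 CPM in either library, the 5 highest and 5 lowest of each main gate comparison, and Bclaf1, Myc and Mycn. Rrp12, Nol10, Utp14b, Polr1b and Polr1e, under 20 CPM, and members with the largest ratios in single gates were named after their values were seen. The genes, roles, lists and gates were chosen with earlier results of these data known.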

Additional observations from a re-analysis of the deposited data

Results flagged for a closer look

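For 12 genes the log2 ratio of CD150-CD48+ over CD150+CD48- cells lay above 0 in WT and below 0 in KO, with both counting intervals clear of 0. The difference between libraries was not tested, since each genotype is 1 library. The 12 were picked by these intervals, and the same count was not made over all genes. The values in WT and KO were 0.55 and -0.22 for Bop1, 0.29 and -0.11 for Fbl, 0.20 and -0.11 for Npm1, 0.19 and -0.14 for Dkc1, and 0.17 and -0.35 for Nolc1. They were 0.15 and -0.24 for Ncl, 0.15 and -0.20 for Utp14a, 0.14 and -0.16 for Nop10, and 0.12 and -0.091 for Polr1d. They were 0.10 and -0.17 for Nop16, 0.081 and -0.18 for Nop56, and 0.048 and -0.14 for Nop58. Erythroid-gate cells were 4.82% of CD150+CD48- cells in WT and 25% in KO. Within no lineage cells all 12 lay above 0 in both libraries, between 0.26 and 0.93 in WT and between 0.24 and 0.59 in KO. Of all 48 measured genes, 41 in WT and 40 in KO lay above 0 there, so this was not particular to the 12. Over all genes 3074 of 9433 in WT and 3321 of 9619 in KO did.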

How the results depend on the processing

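No paired analysis was possible because there is 1 library per genotype and no result comes from a test. Median of ratios scaling, which removes a shift of 0.067 over all genes, gave a KO over WT median of 0.034 over all cells with 0 genes at least 25% higher, 0.035 for the other pathway genes, -0.014 in CD150-CD48+ and -0.0035 in Granulocyte-monocyte (both now below 0), and 0.69 for Erythroid over no lineage. With KO cells weighted to the WT make-up (99.4% of WT cells had a KO match) the median was 0.035 with 1 gene at least 25% higher, and 0.034 for other pathway genes. That count was 0 at a minimum of 20 CPM, 1 with a shared UMI minimum and 1 without the top 5% of cells by UMIs.

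Splitting the tags at their medians gave -0.0044 for KO over WT in CD150-CD48-, -0.098 for CD150+CD48+ over CD150+CD48-, -0.17 for CD150-CD48+ over CD150+CD48- and -0.38 for CD150-CD48- over CD150+CD48- (reported as 0.034). Taking the lowest and highest of 3 equal tag groups gave -0.066, -0.18 and -0.50 for these last 3. Low cycle cells alone gave 0.44 for Erythroid over no lineage (17 WT and 11 KO Erythroid-gate cells) and -0.15 for CD150-CD48- over CD150+CD48-.

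The next 2 settings, and the exosome list without Mpp6, were chosen after seeing the data. No lineage cells alone gave 0.037 over all cells (1 gene at least 25% higher), 0.033 for other pathway genes, 0.026 in CD150+CD48-, 0.0014 in CD150-CD48-, -0.047 in CD150+CD48+, 0.053 in G2M and 0.26 for CD150-CD48+ over CD150+CD48-. Without Erythroid-gate cells the values were 0.048 over all cells (1 gene), 0.037 for other pathway genes, 0.033 in CD150+CD48-, -0.028 in CD150-CD48-, 0.079 in G2M, 0.15 for CD150-CD48+ over CD150+CD48- and -0.12 for CD150-CD48- over CD150+CD48-. The cause of none of these shifts was tested. Over all alternatives, 213 of 235 medians and 155 of 165 values of single genes kept their sign. Size was held to a stricter mark, a tolerance set in most cases from the counting interval. By it, 103 values of the main results stayed the same, 25 moved and 1 reversed sign from beyond the tolerance. For the other results these counts were 226, 64 and 5. With 1 library per genotype, the spread between embryos was not measured. Doublets were not called, and free RNA in empty droplets held the 50 genes at 8386 CPM in WT and 9273 in KO, near the level in cells.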

Other observations

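Nop53 differed from most of the other genes in the cycle and Lymphoid comparisons. It was lower in S than in low cycle cells (-0.49 in WT and -0.52 in KO). In G2M over low cycle cells it was lower too (-0.26 and -0.27), where 40 of 48 were higher in both libraries. It was higher in Lymphoid-gate than in no lineage cells (0.24 and 0.29). In Erythroid-gate cells it was higher (0.20 and 0.15), as the others were except Utp14b. KO over WT it stood at 0.021 over all cells. Utp14b was the 1 gene lower in Erythroid-gate cells, while its X-linked parent Utp14a stood at 58.9 and 97.3 CPM in no lineage and Erythroid-gate cells of WT and at 60.9 and 108.9 in KO. Of the 50 genes, 24 overlap another annotated gene, 8 of them 1 with at least 5 CPM. Mycn stood at 86.8 CPM in no lineage and 6.96 in Erythroid-gate cells of WT and at 77.5 and 4.22 in KO, while Myc stood at 79.2 and 131.6 in WT and 87.5 and 146.6 in KO.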
